A study of Mus musculus with 16 samples.

Results

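Glycolysis turns glucose into pyruvate in the cytosol, and skeletal muscle holds some of the highest amounts of its enzymes of any tissue. Fast-twitch fibres rely on it most, whereas slow-twitch fibres burn pyruvate and fatty acids in mitochondria. Lactate dehydrogenase interconverts pyruvate and lactate as a tetramer of A and B subunits, with the A subunit (Ldha) prevailing in fast fibres and the B subunit (Ldhb) in slow fibres and heart. The 10 genes described here encode the muscle phosphofructokinase (Pfkm), aldolase A (Aldoa), triosephosphate isomerase (Tpi1), glyceraldehyde-3-phosphate dehydrogenase (Gapdh), phosphoglycerate kinase 1 (Pgk1), muscle phosphoglycerate mutase (Pgam2), muscle enolase (Eno3), muscle pyruvate kinase (listed as Pkm2) and both lactate dehydrogenase subunits. They were chosen by gene name among the non-control probes of the array and are 10 of 27745 gene names, measured by 15 of 41174 probes.

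RNA of the gastrocnemius muscle was compared between 2 groups of 8 male C57BL/6N mice, aged 3 months at the start, that ate the cHF diet, rich in fat and based on corn oil, over 8 weeks. Rosiglitazone, an activator of PPARγ used against diabetes, was in the food of both groups at 10 mg per kg diet, so that no mouse in the comparison was free of the drug. In the cHF+F+ROSI group an n-3 concentrate (LC-PUFA, mainly DHA and EPA) replaced 15% of the dietary lipids, and the cHF+ROSI group had no such replacement. All mice were fasted for 10 h and then re-fed Chow overnight, so the values describe re-fed muscle. Each mouse had an array of its own, with its RNA in the Cy5 channel and a common reference pool in the Cy3 channel. The measure is the normalized log2(Cy5/Cy3), in which 0 nominally means the level of the pool, and a difference is cHF+F+ROSI minus cHF+ROSI. The level of a ratio also depends on the probe, as the 2 probes of Ldha averaged 1.25 and -0.29 in cHF+ROSI. It is therefore not read as abundance against the pool.

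The 16 arrays lay on 4 slides, 2 of each group per slide, but positions 1 and 3 of a slide always held cHF+ROSI and positions 2 and 4 always held cHF+F+ROSI, so that position and diet cannot be told apart. The median ratio of Cy5 signal to background ranged from 2.33 to 3.64 over the arrays, and cHF+ROSI replicate 1 was the dimmest. On this array the Cy5 signal of the 9 genes that could be measured was 36.9% to 67.5% of the median of the other arrays, while the Cy3 signal of the same probes, which comes from the same pool on every array, was 126% to 208% of it. It was the lowest cHF+ROSI array for 6 of these 9 genes. cHF+F+ROSI replicate 2 stood apart in another way, with a mean log2 ratio of 10 slow fibre genes (Myh7, Tnni1, Tnnt1 and others) of -2.19, against -0.64 to 0.25 in the other mice of its group. Results that rest on either mouse are given with and without it. The tissue label was checked with 12 fast fibre genes, which were all well above background on every array.

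The promoters of 3 genes are shown because these genes carry the results below. Pgk1 was the member with the largest difference between the diets in relation to its error. The Ldha ratio, by one of its probes, varied in the opposite direction to Ldhb between mice. Much of the spread of that ratio lies in the reference channel, as given below. The windows are the 250 bases before the RefSeq start site, 5′ to 3′ on the strand of the gene, on build GRCm38.p6. Capitals mark ACGTG or its reverse complement, the core to which hypoxia-inducible factors and some E-box proteins bind; a CACGTG holds a match on each strand. The lines give Pgk1 (chrX:106186850-106187099, plus strand), Ldha (chr7:46845554-46845803, plus strand, the first of its start sites) and Ldhb (chr6:142507958-142508207, minus strand).
Pgk1: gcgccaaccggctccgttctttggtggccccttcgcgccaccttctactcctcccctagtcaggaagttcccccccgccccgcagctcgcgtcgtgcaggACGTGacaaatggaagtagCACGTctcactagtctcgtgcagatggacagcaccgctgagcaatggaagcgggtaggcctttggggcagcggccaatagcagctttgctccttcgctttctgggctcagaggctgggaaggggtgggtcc
Ldha: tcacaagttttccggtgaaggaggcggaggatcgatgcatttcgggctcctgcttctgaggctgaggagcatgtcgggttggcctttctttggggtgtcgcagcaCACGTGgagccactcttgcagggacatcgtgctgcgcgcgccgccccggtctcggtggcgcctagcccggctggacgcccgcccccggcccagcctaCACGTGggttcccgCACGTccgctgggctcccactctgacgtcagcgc
Ldhb: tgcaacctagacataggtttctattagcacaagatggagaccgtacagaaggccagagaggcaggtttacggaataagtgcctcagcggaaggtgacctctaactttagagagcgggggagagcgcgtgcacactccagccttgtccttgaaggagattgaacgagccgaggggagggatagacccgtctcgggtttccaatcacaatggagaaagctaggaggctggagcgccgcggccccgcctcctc
The Ldha window held 5 matches to ACGTG over both strands and the Pgk1 window 2, while the Ldhb window held none. A second Ldha window, before a later start site (chr7:46846832-46847081), held no match. The 10 genes had 17 windows in all, of which 7 held a match, and 16.6% of all 32851 promoter windows of this length did. For GGGCGG, the GC box, searched on both strands, these figures were 6 of the 17 windows and 32.7%. Windows of a gene can overlap, as for Aldoa, so that a site can count more than once. By gene, 5 of the 10 held ACGTG and 5 held GGGCGG in any of their windows. A gene with several windows has more chances of a match, and the share by gene over all genes was not computed. A match describes the letters and does not show binding.

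The first question was whether the n-3 LC-PUFA changed the mRNA of these enzymes on top of rosiglitazone. None of the 9 genes that could be measured passed an adjusted p of 0.05 (limma with Benjamini-Hochberg adjustment over all 19398 probes tested), and 0.0155% of all probes did. One gene, Pgk1, had an unadjusted limma p of up to 0.05, a level that 7.44% of all probes reached in either direction and 3.49% with higher values in cHF+F+ROSI. Among the 362 probes at least as bright in Cy5 as the dimmest reported member, 14.9% reached it. Of the 9 genes, 6 had higher mean values in cHF+F+ROSI and 3 had lower ones. Their median difference was 0.072 on the log2 scale, and the median over all probes was -0.0012. Without cHF+ROSI replicate 1 the median of the 9 genes was -0.0044. The plot of the ratios of each mouse shows how far the groups overlapped.

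**Figure D1:**
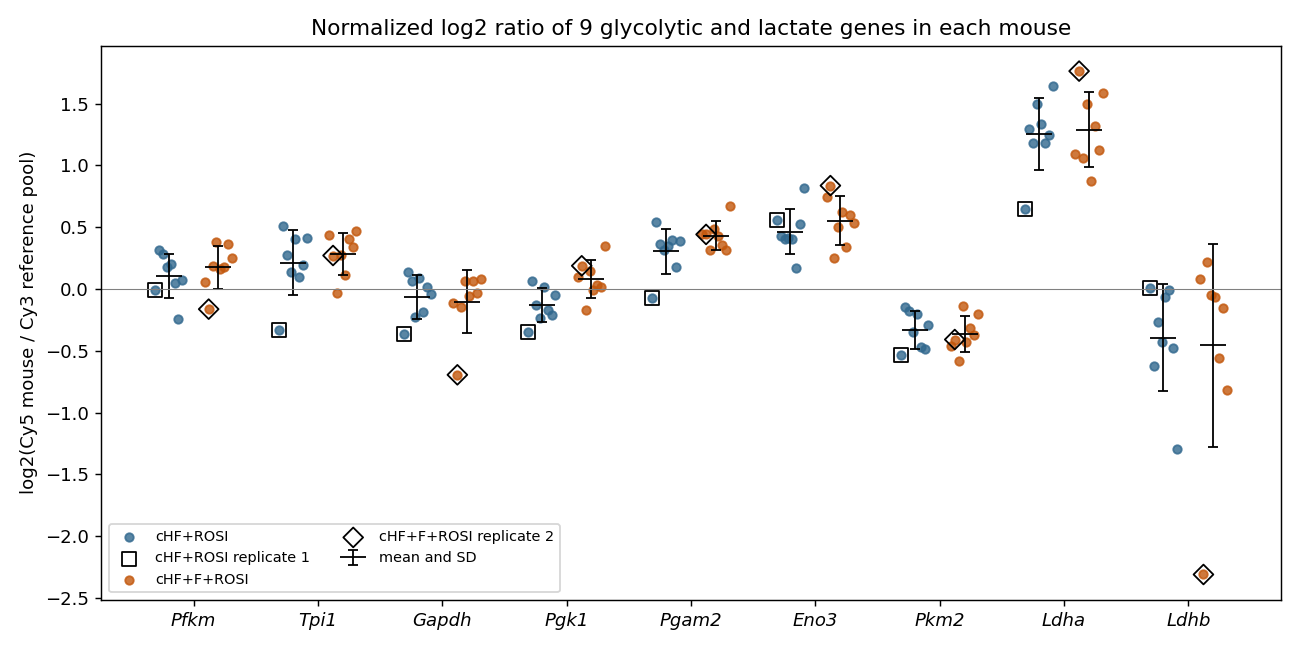
Normalized log2 ratio (mouse in Cy5 over reference pool in Cy3, vertical axis) of 9 genes in 16 mice, 8 per group, with mean and SD as black bars; the square marks cHF+ROSI replicate 1 and the diamond cHF+F+ROSI replicate 2. The groups overlap for every gene, and the lowest Ldhb value, -2.31, belongs to cHF+F+ROSI replicate 2.

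Pgk1 makes the first ATP of glycolysis. Its probe (mm8, chrX:102406147-102406206, printed 10 times on each array) had log2 ratios from -0.35 to 0.067 in cHF+ROSI, with a median of -0.15, and from -0.17 to 0.35 in cHF+F+ROSI, with a median of 0.063. The ranges overlapped, but 7 of 8 mice given the n-3 concentrate exceeded the mean of the other group and 4 exceeded its highest mouse. The difference was 0.21 ± 0.071 (SE, n = 8 per group), a 1.16-fold higher level with a 95% interval from 1.04 to 1.29. The unadjusted p was 0.0082 in limma and 0.011 in the exact two-sided permutation test, and the adjusted limma p was 0.48. It was higher in cHF+F+ROSI within each of the 4 slides, by 0.10 to 0.35. A second Pgk1 probe (chrX:102406169-102406228) gave 0.20 ± 0.067 (SE, n = 8 per group), but shares 38 of its bases with the first and is no separate evidence. Without cHF+ROSI replicate 1, the lowest mouse, the difference was 0.18. The Cy3 signal of the reference pool at this probe differed by -0.058 between the groups of arrays, with an unadjusted limma p of 0.10, and the Cy5 signal alone by 0.15, with 0.031. None of the 9 genes had an unadjusted limma p of up to 0.05 in Cy3, against 3.61% of all probes, and Pgk1 was the only one with Cy5 alone, against 7.62%.

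Pgam2 converts 3-phosphoglycerate to 2-phosphoglycerate in mature muscle. Its probe (chr11:5701822-5703040) had log2 ratios from -0.07 to 0.54 in cHF+ROSI, with a median of 0.35, and from 0.31 to 0.67 in cHF+F+ROSI, with a median of 0.44. All 8 cHF+F+ROSI mice were above the cHF+ROSI mean, which the value of -0.07 of cHF+ROSI replicate 1 pulled down. The difference of 0.13 ± 0.074 (SE, n = 8 per group) had an adjusted limma p of 0.73. Without cHF+ROSI replicate 1 it was 0.072.

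Pfkm, which carries out the committed and most regulated step of glycolysis, had log2 ratios from -0.24 to 0.31 in cHF+ROSI and from -0.16 to 0.38 in cHF+F+ROSI (chr15:97960316-97960375). The difference was 0.072 ± 0.084 (SE, n = 8 per group), with an adjusted limma p of 0.89. It was 0.022 without cHF+ROSI replicate 7, the lowest of its group, and 0.12 without cHF+F+ROSI replicate 2. Tpi1, which equalizes the triose phosphates, ranged from -0.33 to 0.51 in cHF+ROSI and from -0.03 to 0.47 in cHF+F+ROSI (chr6:124776548-124776607). Its difference was 0.073 ± 0.10 (SE, n = 8 per group), with an adjusted limma p of 0.91, and -0.0044 without cHF+ROSI replicate 1. For both genes the mice of one group covered nearly the whole range of the other.

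Gapdh, which makes NADH and is widely used as a reference gene, had a median log2 ratio of -0.013 in cHF+ROSI and of -0.044 in cHF+F+ROSI (chr6:125128116-125128174). The lowest mouse was cHF+F+ROSI replicate 2 at -0.69, and the next lowest of its group was at -0.15. The difference was -0.038 ± 0.10 (SE, n = 8 per group), with an adjusted limma p of 0.96 and a 95% interval of the fold from 0.84 to 1.13, and it turned to 0.047 without that mouse. Mouse genomes hold many processed copies of Gapdh, and whether the probe separates their transcripts from the gene was not tested, so the Gapdh value is uncertain to that extent. Of the 5 genes whose ratios followed the mean of the 9 members most closely over the 16 mice, 4 were annotated as similar to Gapdh (LOC640374, LOC676153, LOC668299 and LOC667802), with Pearson r after removal of group means from 0.87 to 0.90. The fifth, the predicted gene EG277333, had r = 0.92. These values share the arrays, the reference and the normalization with the members and are a description.

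Pkm2, the muscle pyruvate kinase gene now named Pkm, makes pyruvate and the second ATP. The reported probe (chr9:59477106-59477165) had log2 ratios from -0.54 to -0.15 in cHF+ROSI and from -0.59 to -0.14 in cHF+F+ROSI. The difference was -0.032 ± 0.072 (SE, n = 8 per group), with an adjusted limma p of 0.96, so a fold below 0.88 or above 1.09 lay outside its 95% interval. The 2 other Pkm2 probes differed by -0.010 and 0.013. The latter lies elsewhere in the gene (chr9:59470599-59470658) and was dim, with a mean Cy5 signal over background of 4.11 against 1743 for the reported probe. Its ratios did not follow those of the reported probe in cHF+ROSI replicate 1, which was at -0.017 by the dim probe and at -0.54 by the reported one. The files do not say which splice form a probe detects.

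Aldoa and Eno3 were at or near the limit of the scanner, as the plot of Cy5 signals shows. Both Aldoa probes (chr7:126586433-126586492 and, with a listed span of only 15 bases, chr7:126586235-126586249) were flagged saturated in Cy5 on all 16 arrays, 8 of 8 in each group, and were not saturated in Cy3. Their Cy5 signal stood at 100% of the saturation value in every mouse, so Aldoa is saturated in both groups and no fold is given. Eno3 (chr11:70478622-70478681) was flagged on 12 of 16 arrays, 6 in each group. Its log2 ratios ranged from 0.17 to 0.81 in cHF+ROSI and from 0.25 to 0.84 in cHF+F+ROSI. The difference over all arrays, 0.089 ± 0.089 (SE, n = 8 per group), with an adjusted limma p of 0.86, therefore rests mostly on clipped Cy5 values. With saturated spots left out, 2 arrays per group remained and the difference was 0.15. The other probes reported had no saturation flag, but the highest array reached 94.6% of the saturation value for Ldha, 80.7% for Pfkm, 79.5% for Pgam2 and 75.7% for Tpi1, against 33.8% for Pgk1, 22.5% for Ldhb and 16.9% for Pkm2. Of all 19398 probes, 35 had a Cy5 saturation flag on at least 1 array and 4 on all of them.

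**Figure D2:**
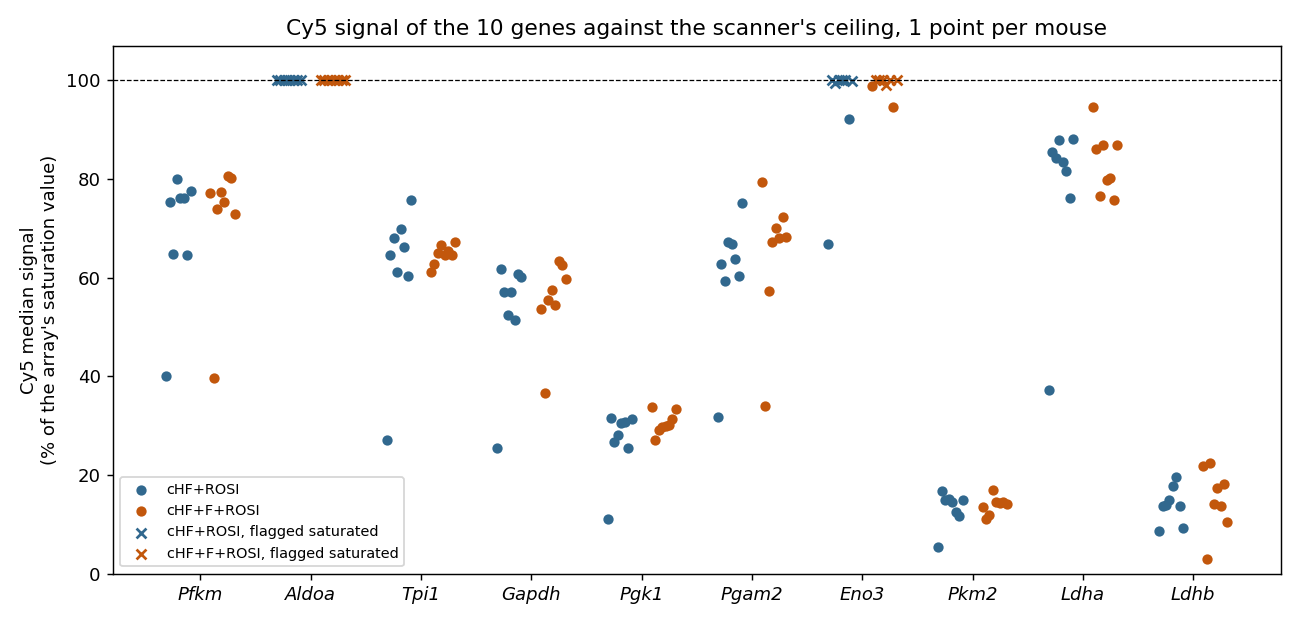
Cy5 median signal of the reported probe of each of the 10 genes in each mouse, as a percent of the saturation value of its array (vertical axis, dashed line at 100%); crosses mark spots flagged as saturated. Aldoa lies on the line in all 16 mice and Eno3 is flagged in 12, while Pgk1, Pkm2 and Ldhb stay below 34%.

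No difference between the diets was detected for either lactate dehydrogenase subunit, and the intervals were wide. Ldha had log2 ratios from 0.65 to 1.64 in cHF+ROSI, with a median of 1.27, and from 0.87 to 1.76 in cHF+F+ROSI, with a median of 1.22 (reported probe, chr7:46723561-46723620). The difference was 0.038 ± 0.14 (SE, n = 8 per group), with an adjusted limma p of 0.98 and a 95% interval of the fold from 0.84 to 1.25. cHF+ROSI replicate 1 had the lowest Ldha ratio of its group, 0.65, with the next at 1.18, and the difference was -0.049 without it. Ldhb (chr6:142447540-142447599) ranged from -1.30 to 0.0076 in cHF+ROSI, with a median of -0.35, and from -2.31 to 0.22 in cHF+F+ROSI, with a median of -0.11. The difference was -0.062 ± 0.30 (SE, n = 8 per group), with an adjusted limma p of 0.98, and 0.20 without cHF+F+ROSI replicate 2, so the interval of the fold, from 0.62 to 1.47, left room for changes in both directions.

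Ldhb was the member that varied most between mice on one diet. Its within-group SD was 0.66, higher than that of 99.2% of all probes, while Pgk1 had 0.15, near the median of 0.14 over all probes. The Ldhb ratio minus the Ldha ratio was -1.65 ± 0.67 (SD, n = 8) in cHF+ROSI and -1.75 ± 1.08 (SD, n = 8) in cHF+F+ROSI. It was lowest in cHF+F+ROSI replicate 2, at -4.07, and reached -2.94 in cHF+ROSI. By the other Ldha probe the same measure was -0.11 ± 0.54 (SD, n = 8) in cHF+ROSI and -0.13 ± 0.72 (SD, n = 8) in cHF+F+ROSI, with -1.63 as the lowest value, so its level belongs to the probe chosen. The mice with low Ldhb were those with low slow fibre genes, which are the contractile proteins of the fibres in which Ldhb prevails.

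With group means removed, Ldhb correlated with the mean log2 ratio of the 10 slow fibre genes over the 16 mice with Pearson r = 0.89 (permutation p within groups 0.00013, adjusted over 42 relations 0.0018) and Spearman rho = 0.67 (p = 0.0048, adjusted 0.023). Without the 2 mice farthest from the median of the slow fibre genes, cHF+F+ROSI replicate 2 and cHF+ROSI replicate 8, r was 0.58. Ldhb showed no relation to the mean of the 12 fast fibre genes (r = 0.077, permutation p = 0.75), which was partly clipped. Myh4 was flagged saturated in Cy5 on 16 of 16 arrays, Tnnt3 and Tnni2 on 15, Mylpf on 13 and Tnnc2 on 9. This mean therefore cannot decide whether Ldhb follows fast fibre genes. The Ldha ratio by the reported probe ran opposite to Ldhb, with r = -0.75 against the slow fibre genes (permutation p = 0.00057, adjusted 0.0060). Its rho was -0.85 (permutation p = 0.00011, adjusted 0.0041), and r was -0.59 without the same 2 mice. Ldha and Ldhb correlated with r = -0.73 (permutation p = 0.00072, adjusted 0.0060). Outside cHF+ROSI replicate 1, Cy5 at the reported Ldha probe ranged from 494011 to 614069, and Cy3 of the common pool from 23220 to 39140. The highest Ldha ratio, in cHF+F+ROSI replicate 2, had Cy5 at 101% and Cy3 at 88.5% of the median of the other arrays. Outside cHF+ROSI replicate 1, Cy3 thus varied more in proportion than Cy5. The lowest ratio of these arrays, 0.87 in cHF+F+ROSI replicate 5, had the highest Cy3 signal, 39140. The lowest Cy3 signal, 23220 in cHF+ROSI replicate 8, had a ratio of 1.64, the highest of its group. Much of the spread of this ratio therefore lies in the reference channel, and its share in these relations was not tested. The relations were chosen after their values had been seen. In bulk muscle, fewer fibres of a type and less RNA per fibre cannot be told apart.

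**Figure D3:**
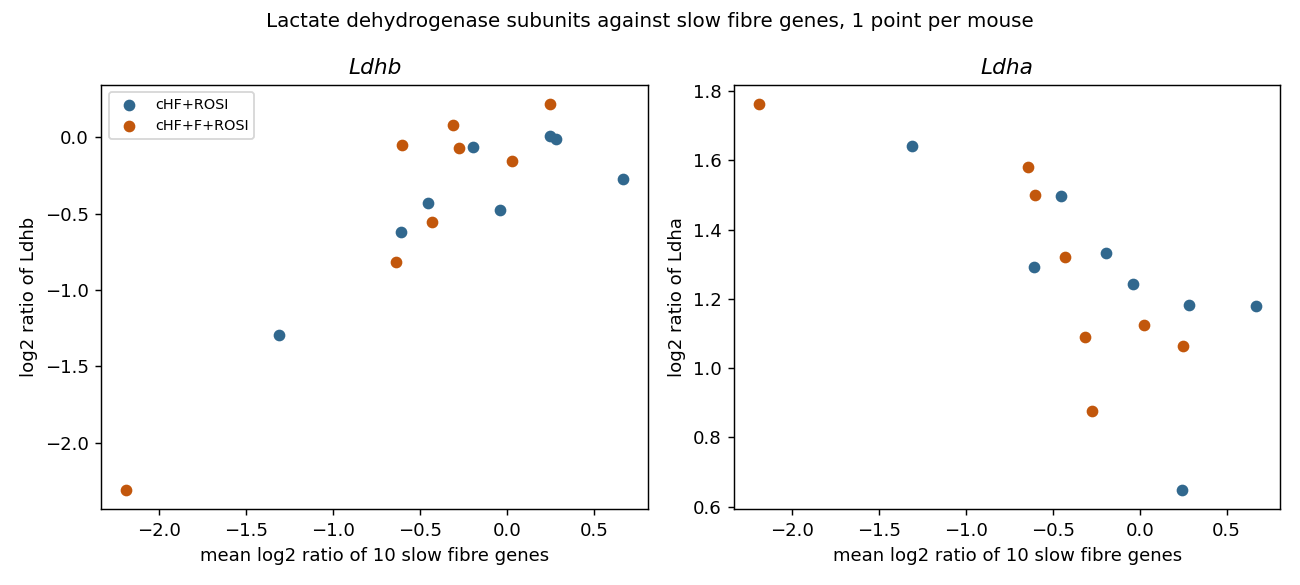
Log2 ratio of Ldhb (left) and of Ldha by its reported probe (right) against the mean log2 ratio of 10 slow fibre genes, 1 point for each of 16 mice. Ldhb tends to rise with the slow fibre genes (Pearson r = 0.89, group means removed) and the Ldha ratio to fall (r = -0.75). Without cHF+F+ROSI replicate 2 and cHF+ROSI replicate 8, r was 0.58 for Ldhb and -0.59 for Ldha. The point at -2.19 is cHF+F+ROSI replicate 2. Much of the spread of the Ldha ratio lies in Cy3, the common reference pool.

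Over all 16 mice, the second Ldha probe did not share this pattern. It has a listed span of 930 bases (chr7:46722098-46723027), lies upstream of the reported probe and had log2 ratios from -0.53 to -0.10 in cHF+ROSI and from -0.68 to -0.13 in cHF+F+ROSI. Its difference between the diets, -0.040 ± 0.078 (SE, n = 8 per group), with an adjusted limma p of 0.95, was as close to 0 as that of the reported probe. Over the 16 mice, however, both Ldha probes correlated with r = 0.0073 (permutation p = 0.98), whereas both Pgk1 probes, which overlap, correlated with r = 0.94. The Ldha value depended on few mice: r was 0.425 without cHF+F+ROSI replicate 2 and cHF+ROSI replicate 6, the farthest out in the second probe. Within cHF+ROSI r was 0.61, and within cHF+F+ROSI -0.47. The second probe gave r = 0.13 with the slow fibre genes (permutation p = 0.63) and r = 0.25 with Ldhb (permutation p = 0.38), which became -0.49 and -0.39 without the 2 mice farthest out in the slow fibre genes and in this probe, respectively. cHF+F+ROSI replicate 2 was the highest Ldha mouse by the reported probe, at 1.76, and the lowest of all by the second, at -0.68. What the probes detect differently was not tested. Over all 16 mice, the relation of Ldha to the slow fibre genes was seen by the reported probe alone. By the second probe r with the slow fibre genes was -0.52 within cHF+ROSI and 0.58 within cHF+F+ROSI.

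Several glycolytic genes varied together between mice of one diet. Of 36 pairs among the 9 genes, 25 had a positive r over the 16 mice after removal of group means, and the median was 0.34. An adjusted permutation p under 0.05 was reached by 8 pairs with positive r and by 1 pair, Ldha and Ldhb, with negative r. Pgam2 and Pgk1 had r = 0.82 (rho = 0.79), Pgk1 and Tpi1 also r = 0.82 (rho = 0.83), Pkm2 and Pgk1 r = 0.77 and Pgam2 and Tpi1 r = 0.75. Without the 2 mice farthest out in the first-named gene of a pair these became 0.73 for Pgam2 and Pgk1, 0.80 for Pgk1 and Tpi1, 0.76 for Pkm2 and Pgk1, and 0.50 for Pgam2 and Tpi1. Without cHF+ROSI replicate 1 the median r of the 36 pairs was 0.37. Gapdh had no pair with an adjusted p under 0.05 by r, but had 3 by rank, with Pkm2 (rho = 0.76, permutation p = 0.0017, adjusted 0.016), Tpi1 (rho = 0.66, p = 0.0091, adjusted 0.035) and Pfkm (rho = 0.64, p = 0.012, adjusted 0.040). Without both cHF+ROSI replicate 1 and cHF+F+ROSI replicate 2 its r with Pkm2 was 0.72, with Tpi1 0.60 and with Pfkm 0.36. The correlations of Eno3 rest mostly on clipped Cy5 values. All ratios share the Cy3 reference and the normalization of their array, and its part in these correlations was not tested.

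**Figure D4:**
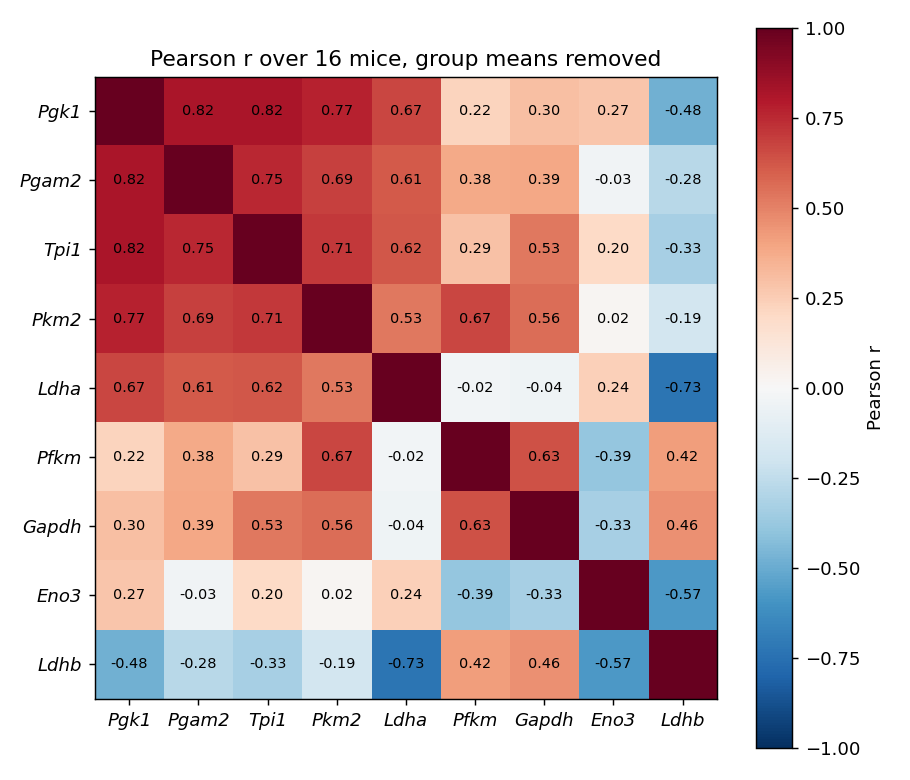
Pearson r between the log2 ratios of 9 genes over 16 mice after removal of group means (colour and printed value; genes on both axes). Pgk1, Pgam2, Tpi1 and Pkm2 form a block with r of at least 0.69, and Ldhb has a negative r of -0.73 with Ldha.

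The rest of the pathway was read from a list of 28 further genes of glycolysis and lactate handling, of which 22 passed the filter on low signals; Hk3, Aldoc, Gapdhs, Eno2, Pklr and Slc16a7 did not. No gene of the list passed an adjusted p of 0.05. At an unadjusted limma p of up to 0.05, 4 were higher in cHF+F+ROSI and 0 lower, against 7.44% of all probes in either direction. Of the 4, Gpi1, Gpd1 and Slc16a3 are among the 362 probes at least as bright in Cy5 as the dimmest reported member. Of those probes 14.9% reached this level. The median difference of the 22 genes was 0.015. Pfkfb1, whose bifunctional product makes and degrades fructose-2,6-bisphosphate, was 0.18 higher (SE 0.055, n = 8 per group; limma p = 0.0045, adjusted 0.41; exact permutation p = 0.0059). Its log2 ratio was from -0.31 to -0.095 in cHF+ROSI and from -0.30 to 0.12 in cHF+F+ROSI, and 7 of 8 cHF+F+ROSI mice were above the cHF+ROSI mean. Gpi1, the isomerase that acts before phosphofructokinase, was 0.24 ± 0.094 higher (SE, n = 8 per group). Its limma p was 0.020, adjusted 0.59, and its exact permutation p was 0.015. The Gpi1 probe is printed 10 times, and some of these spots were flagged saturated in Cy5 on 10 of 16 arrays. Their mean Cy5 signal lay between 32.9% and 87.8% of the saturation value. At this probe the Cy3 signal of the reference pool itself differed by -0.13 between the groups of arrays, with an unadjusted limma p of 0.0092. With Cy5 alone the difference was 0.061, with an unadjusted limma p of 0.28.

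Gpd1, which links the triose phosphates to glycerol-3-phosphate, was 0.31 higher (SE 0.13, n = 8 per group; limma p = 0.030, adjusted 0.62; exact permutation p = 0.044). The exporter of lactate Slc16a3 (MCT4) was 0.29 higher (SE 0.13, n = 8 per group; limma p = 0.037, adjusted 0.63; exact permutation p = 0.056). Without cHF+ROSI replicate 1 the differences were 0.16 for Gpi1, 0.22 for Gpd1 and 0.25 for Slc16a3. Their unadjusted limma p were 0.025, 0.063 and 0.074. With Cy5 alone Gpd1 differed by 0.19 and Slc16a3 by 0.29, with unadjusted limma p of 0.13 and 0.023. Pfkfb1 had an unadjusted limma p of 0.017 with Cy5 alone. Pfkfb1 and Gpi1 kept an unadjusted limma p of up to 0.05 whichever array was left out. With single arrays left out, Gpd1 exceeded it in 4 fits and Slc16a3 in 6. The largest differences that did not reach this level were -0.49 for Ldhc, the testis subunit of lactate dehydrogenase, -0.40 for Pfkfb3 and 0.21 for hexokinase 2 (Hk2), with unadjusted limma p of 0.19, 0.079 and 0.10. The Ldhc value rested on cHF+ROSI replicate 8 and was -0.13 without it, when Pfkfb3 was at -0.26. Hk2 was at 0.11 without cHF+ROSI replicate 7, and with Cy5 alone its direction turned, to -0.024.

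**Figure D5:**
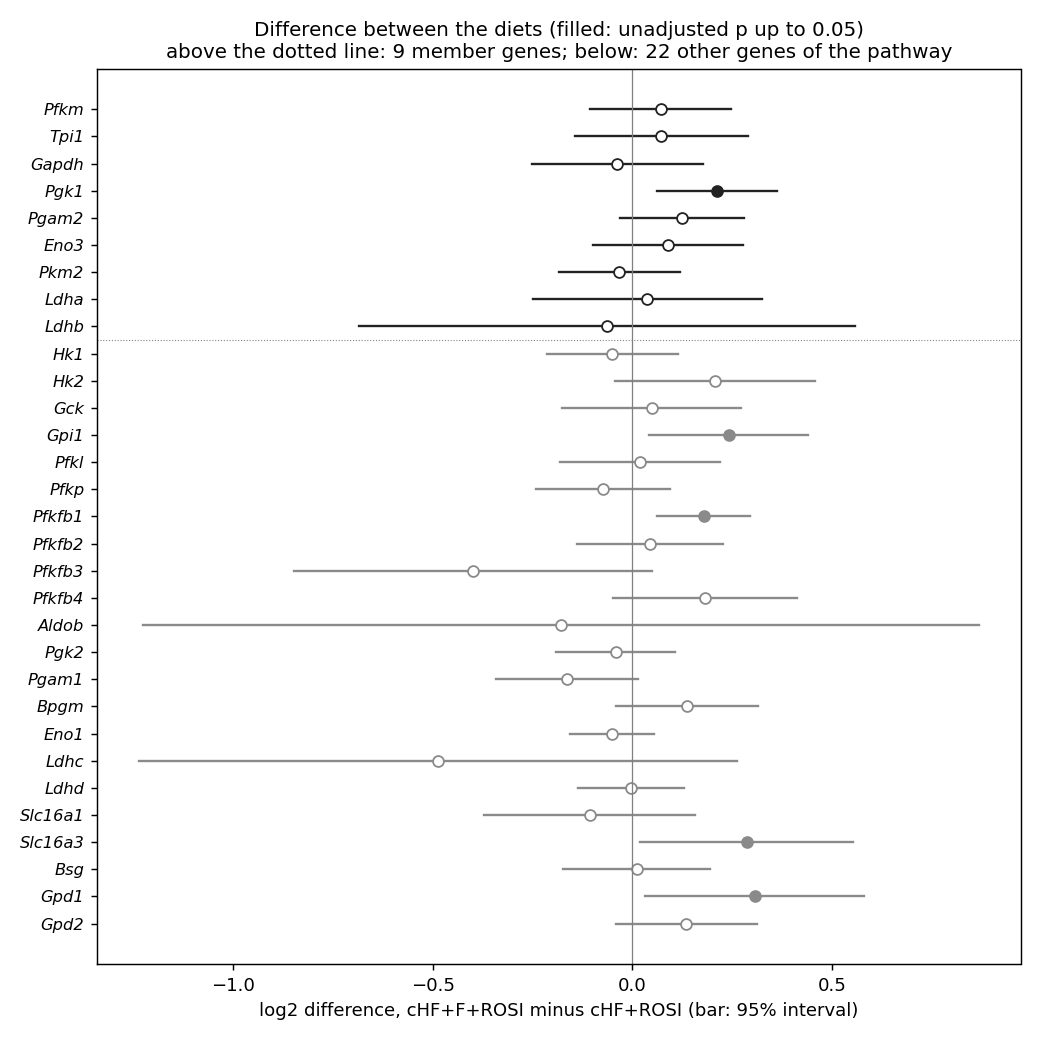
Difference between the diets on the log2 scale (horizontal axis, cHF+F+ROSI minus cHF+ROSI) with 95% intervals for 9 member genes (above the dotted line) and 22 other genes of the pathway (below it); filled points have an unadjusted limma p of up to 0.05. Pgk1, Pfkfb1, Gpi1, Slc16a3 and Gpd1 are filled, and all 5 lie to the right of 0.

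Markers of fibre types and other cells were set beside these values. The mean log2 ratio of the 12 fast fibre genes ranged from -0.12 to 0.36 in cHF+ROSI and from -0.15 to 0.16 in cHF+F+ROSI, and that of the 10 slow fibre genes from -1.31 to 0.67 and from -2.19 to 0.25. The fast mean includes the saturated genes named above and was partly clipped. Of the slow fibre genes, 9 of 10 had lower means in cHF+F+ROSI, as had 50.7% of all probes, and 0 had an unadjusted limma p of up to 0.05. Without cHF+F+ROSI replicate 2, 8 of 10 were lower, 1 had an unadjusted limma p of up to 0.05, and the difference of the list mean went from -0.35 to -0.11. Adipocyte markers ranged from -1.02 to 0.38 in cHF+ROSI and from -1.40 to 1.00 in cHF+F+ROSI (7 of 8 genes measured, without Adrb3), red blood cell markers from -0.68 to -0.058 and from -0.60 to 0.94 (4 genes measured), and macrophage markers from -0.54 to 0.38 and from -0.44 to 0.24 (8 of 8 genes). The 2 groups overlapped in each of these lists, and their part in the differences of the enzymes was not tested.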

How the data were processed

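Whole-genome 2-colour Agilent arrays were scanned at 2 laser powers that were joined, and quantified by the authors with Feature Extraction (10.5.1.1 per the file headers, 10.5.5.1 per the submitters' processing notes), which gave the deposited intensity of each spot. Median intensities were corrected with normexp (offset 50), only spots whose signal averaged 2 or more times the background in Cy5 and in Cy3 were used (20703 of 43379), outlier-flagged spots were dropped, and ratios were normalized with loess within arrays in limma 3.58.1 (R 4.3.3). Spots of a probe were averaged. Diets were compared with limma, and single values with the exact permutation test (12870 splits, smallest p 0.000155). The deposited log2 table follows log2 Cy5 (r from 0.998 to 1.000 in the columns mapped to arrays; column medians 9.47 to 9.49) and was an alternative. Where a gene had several probes, the brightest unsaturated one was reported. Precision is limited by the number of arrays. The chain was tried on these arrays with labels mixed and the Cy5 signal of some probes changed. The changes were larger than the differences reported here, so the trial does not show what smaller differences it would find. Genes and lists were chosen with earlier results of these data known. Mice were individually arrayed but housed in pairs.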

Additional observations from a re-analysis of the deposited data

Results flagged for a closer look

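In groups of 8 mice, the highest or lowest mouse stood far from the others in 6 of 38 groups of values examined; chance gives about 1 in 20. The log2 ratio of Gapdh in cHF+F+ROSI replicate 2 was -0.69, with the next mouse at -0.15. The log2 ratio of Ldhb in the same mouse was -2.31, with the next at -0.82, and its mean log2 ratio of the slow fibre genes was -2.19, with the next at -0.64. The log2 ratio of Ldha in cHF+ROSI replicate 1, the dimmest array, was 0.65, with the next at 1.18. By the dim Pkm2 probe, cHF+F+ROSI replicate 5 was at -0.14, with the next at -0.66. The mean of the red blood cell markers in cHF+F+ROSI replicate 6 was 0.94, with the next at 0.040. No cause was tested.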

How the results depend on the processing

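Pgk1 kept its direction under all 17 alternatives (0.15 to 0.38) and with each array left out in turn (0.17 to 0.25); its lowest adjusted p was 0.30. The number of member genes with an unadjusted p of up to 0.05, which was 1, became 0 with median centring and 0 with scale normalization, and was 1 to 2 with single arrays left out. The number of probes past an adjusted p of 0.05, which was 3, was 14 without background correction, 19 with Feature Extraction's processed signals, 1 with median centring, 0 with scale normalization, 8 with Cy5 alone, 10 in the deposited table, 0 with the replicate block, 13 with array weights and 3 to 5 with single arrays left out. Probes at an unadjusted p of up to 0.05 numbered 820 with median centring and 1179 to 1977 with single arrays left out, against 1444. The median of the member genes ranged from -0.0044 to 0.093 with single arrays left out.

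Signs of differences that had been near 0 turned. Scale normalization, which rescales all ratios of an array together, also made the turned differences larger. It gave 0.17 for Gapdh, -0.30 for Eno3, 0.30 for Pkm2 and -0.60 for Ldha. Cy5 alone gave -0.019 for Pfkm and 0.059 for Pkm2. The processed signals gave 0.013 for Pkm2, and the values deposited by the authors 0.053 for Gapdh, 0.050 for Pkm2 and 0.0081 for Ldhb. Array weights gave -0.062 for Ldha, 0.17 for Ldhb and -0.0083 for Tpi1. The mean of all probes gave -0.0011 for Ldha. With single arrays left out, Gapdh ranged from -0.080 to 0.047, Ldha from -0.049 to 0.097, Ldhb from -0.19 to 0.20, Tpi1 from -0.0044 to 0.12, Pfkm from 0.022 to 0.12, Pgam2 from 0.072 to 0.16, Eno3 from 0.047 to 0.14 and Pkm2 from -0.065 to -0.00093. Without cHF+ROSI replicate 1, Ldha was at -0.049 and Tpi1 at -0.0044. Without cHF+F+ROSI replicate 2, Gapdh was at 0.047, Ldha at -0.030 and Ldhb at 0.20. Ldha was at -0.0043 without cHF+F+ROSI replicate 8. Without both of the first 2 arrays, an alternative added after the data had been seen, Gapdh was at 0.0043, Ldha at -0.12, Ldhb at 0.26 and Tpi1 at -0.0025. The cause was not tested. Same-numbered mice correlated with r from -0.34 to 0.73 in their deviations, over 0.1 in 4 of 8 pairs, so the numbers do not pair them, and the replicate block left Pgk1 at 0.21 (adjusted p = 0.54). The number of arrays limits what could be called: the intervals of the unsaturated members reach folds from 0.62 to 1.47. Saturation leaves no value for Aldoa.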
